A study of Mus musculus with 12 samples.

Results

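The genes of the small RNA pathways were followed through meiotic maturation of mouse oocytes that carry or lack the RNA demethylase ALKBH5. The 10 genes were chosen by name from the 56691 genes of the count table, and all 10 were found. They are *Drosha*, *Dgcr8* and *Xpo5*, which make and export microRNA precursors, and *Dicer1*, whose product cuts those precursors and long double-stranded RNA. *Tarbp2* encodes a partner of Dicer. The others are the Argonaute genes *Ago1*, *Ago2*, *Ago3* and *Ago4*, and *Piwil2* of the piRNA pathway. The 12 libraries fell into 6 groups of 2, WT and *Alkbh5* total knockout (KO) oocytes labelled germinal vesicle (GV), germinal vesicle breakdown (GVBD) and MII stage. WT oocytes came from mice without the knockout, and all mice had a C57BL/6 background. KO mice were made with CRISPR-Cas9 by removal of exon 1 of *Alkbh5* in every tissue, so ovarian cells around the oocyte lacked the gene too. According to the methods, females were 3 weeks of age and primed with PMSG, and GV oocytes were freed of their zona and pooled directly or after culture for a set time. The study describes KO GV oocytes as smaller and rarely able to pass GVBD or release a polar body. KO libraries labelled GVBD and MII may therefore hold oocytes of earlier stages, and genotype and stage reached cannot be told apart there.

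In animals, a microRNA is cut from its primary transcript in the nucleus by Drosha with its partner Dgcr8, exported by Exportin 5 and cut again by Dicer with its partner TRBP, the product of *Tarbp2*. An Argonaute protein then carries the small RNA to its target. Dicer also cuts long double-stranded RNA into siRNAs, which Ago2 uses to cleave matching transcripts. The mouse oocyte is known for this siRNA pathway and for an oocyte-specific short form of Dicer that serves it, while microRNA activity is low there and loss of Dgcr8 is tolerated. *Piwil2* encodes a PIWI protein, best known from the male germ line.

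The 4 Argonaute genes differ at codons of the catalytic centre, and these stretches are shown because they tell which of the transcripts measured below encode the residues needed for cleavage. Each sequence is a coding stretch of 27 bases of the GENCODE M21 transcripts on GRCm38, written 5′ to 3′ on the minus strand of the gene, with the catalytic codon in capitals. The first set holds the codon of the third catalytic position, an aspartate in *Ago1*, *Ago2* and *Ago3* and a glycine in *Ago4*.
Ago1: atcttctaccgcGACggcgtccccgag
Ago2: atcttctaccgcGATggcgtctccgag
Ago3: atcttctatcggGATggtgtttcagaa
Ago4: atctactaccgcGGAggggtatccgag
The second set holds the codon of the last catalytic position, a histidine in *Ago2* and *Ago3* and an arginine in *Ago1* and *Ago4*.
Ago1: gcctactatgctCGCttggtggctttc
Ago2: gcttactatgctCACctggtggccttc
Ago3: gcatattacgctCACctggtggcattc
Ago4: gcatattatgccCGGcttgtggcattc
The *Ago2* stretches lie in exons 15 and 18 of 19, at chr15:73113723-73113749 and chr15:73107203-73107229. Those of *Ago3* lie in exons 15 and 18 of 19, at chr4:126350870-126350896 and chr4:126346669-126346695. *Ago1* and *Ago4* are neighbours of *Ago3* on chromosome 4. Their stretches lie at chr4:126441904-126441930 and chr4:126439880-126439906 for *Ago1*, and at chr4:126507026-126507052 and chr4:126496787-126496813 for *Ago4*. *Ago2* and *Ago3* thus share the codons at both positions, and the comparison of their levels is given below. The longest run of identical bases in any of their transcripts was 17 between *Ago2* and *Ago3*. Between *Ago1* and *Ago3* it was 170, which is longer than a read of 150 bases, so reads that lie wholly in that run, if their mates do too, cannot be told apart and the counts of both genes are uncertain there.

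Total counts ranged from 28.6 to 40.2 in units of 1e6, and 221927 to 838409 counts per library belonged to ERCC spike-in RNA. *Alkbh5* received 5355 to 10181 counts in WT libraries and 54 to 143 in KO libraries. All 10 oocyte markers were present in every library and summed to 18106 to 35433 CPM (counts per 1e6 endogenous counts). The 10 markers of granulosa and cumulus cells summed to 24.2 to 39.2 CPM in WT and 32.6 to 73.9 CPM in KO, and of these *Amhr2* was at 0 in all 12 libraries and *Foxl2* at no more than 5 counts. From 4 to 7 of the 10 had a count in a given library. *Cyp19a1*, the aromatase gene of granulosa cells, carried most of the sum, with a mean of 21.2 to 34.5 CPM in the WT groups and 32 to 53.9 CPM in the KO groups. Its change in KO over all stages was 0.82 ± 0.24 on the log2 scale (edgeR, adjusted p = 0.101). *Fshr* was higher in KO at GVBD (log2 fold change 3.38 ± 0.69, edgeR, adjusted p = 0.009), with means of 2.69 CPM in WT and 2.75 CPM in KO at GV. Not all markers were higher in KO. *Inha* had a mean of 2.81 ± 2.16 CPM (SD, n = 2) in WT GV and 0.62 ± 0.52 CPM in KO GV. At GVBD its mean was 0.09 CPM in WT and 0.45 CPM in KO, and at MII it was also higher in KO. The mean of *Has2* was lower in KO at each stage. The part of these markers in the differences below was not tested. KO MII replicate 2 detected the fewest genes (19837, against 21938 to 24436 in the others). In pooled oocytes, fewer cells and less RNA per cell cannot be told apart.

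Levels were compared between genes as spike-in scaled counts per kilobase of exon. *Dicer1* (ENSMUSG00000041415, GRCm38 chromosome 12, 104687742 to 104751952, minus strand) had the highest level in WT at every stage, at 1529 ± 851 (SD, n = 2) in GV, 1120.1 ± 207 in GVBD and 2263 ± 929 in MII. In WT GV it stood at percentile 93.7 of all detected genes. *Ago2* (343 ± 34.6, SD, n = 2), *Tarbp2* (299 ± 0.783) and *Drosha* (297 ± 31.8) followed. The *Drosha* libraries overlapped those of both other genes, and the *Ago2* libraries lay above those of *Tarbp2*. *Ago3* (116 ± 10.4) and *Xpo5* (93.9 ± 3.87) came next, with libraries that did not overlap.

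The partner of Drosha was scarce. *Dgcr8* reached 21.4 ± 6.28 spike-in scaled counts per kilobase in WT GV, at percentile 45.5, against percentile 81.9 for *Drosha*. *Piwil2* (20.8 ± 9.78) overlapped it. *Ago4* (10.6 ± 4.3) and *Ago1* (4.61 ± 5.27), both without the histidine codon shown above, were the lowest and overlapped each other. *Ago1* received 6 counts in one WT GV library and 48 in the other, so its level is poorly defined. The order of the 10 genes in WT GV was the same when scaled to endogenous counts. Exons of all isoforms were summed for the length, and counts per gene do not tell the short oocyte form of *Dicer1* from the somatic form.

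**Figure D1:**
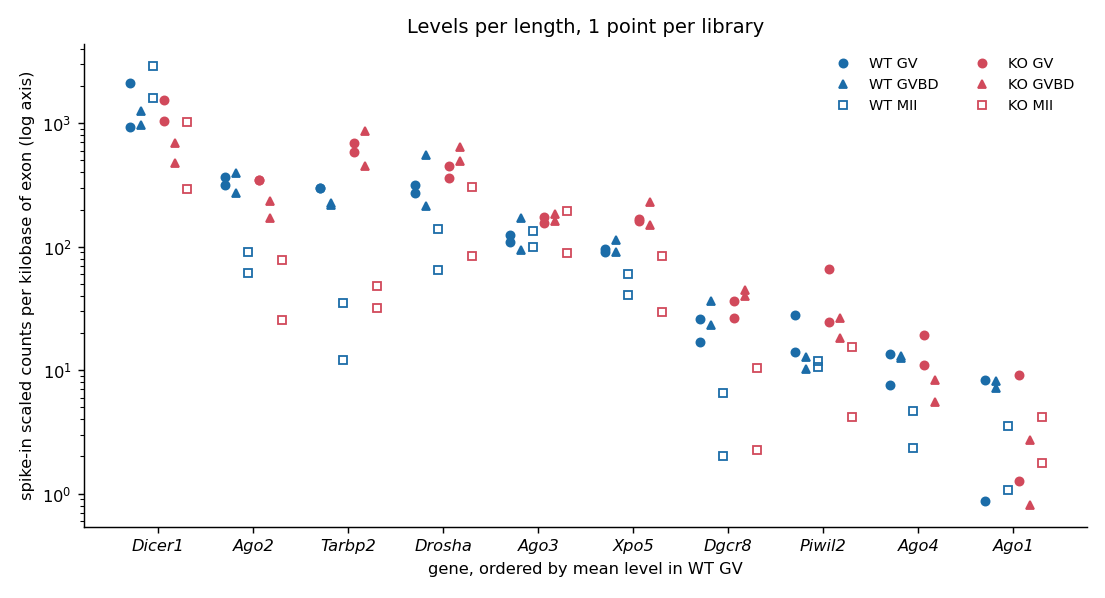
Spike-in scaled counts per kilobase of exon (log axis) for each of the 10 genes, 1 point per library, with WT in blue and KO in red, and circles, triangles and squares for GV, GVBD and MII. *Dicer1* is highest in WT GV with a mean of 1529 and *Ago1* lowest with 4.61, and the 2 KO MII libraries of *Ago4*, at 0, are not drawn.

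*Tarbp2*, *Dgcr8*, *Ago2* and *Drosha* were lower in WT MII than in WT GV, while *Dicer1* and *Ago3* were not called. Libraries were scaled by their spike-in counts. Polyadenylated RNA was measured. In its poly(A) tail assay, which included none of the 10 genes, the study saw tails shorten during maturation in WT and less so in KO. Tail length and transcript amount cannot be told apart in these counts, between stages or genotypes, and this was not tested. A gene was called at a Benjamini-Hochberg adjusted p under 0.05 in the edgeR quasi-likelihood test, over all tested genes, with a log2 fold change of at least 1 in either direction. From GV to MII in WT, 4 of the 10 genes were called lower and 0 higher, beside 30.5% of all 18816 tested genes called lower. Their median log2 fold change was −1.28, against −1.06 for all tested genes. The share of called members is thus near that of the whole transcriptome, and it is the spread among the 10 genes that the values below describe.

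*Tarbp2* (ENSMUSG00000023051, chromosome 15, 102518192 to 102523676, plus strand) had the steepest fall of the 10. Its spike-in scaled counts were 1364 and 1359 in WT GV, 1038 and 998 in GVBD, then 159.5 and 55.4 in MII. The MII libraries lay far below all earlier ones. The log2 fold change from GV to MII was −3.67 ± 0.57 (SE), a 12.7-fold fall (edgeR, adjusted p = 2.2e-09). Relative to the median gene, its change was −2.61.

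*Ago2* (ENSMUSG00000036698, chromosome 15, 73095844 to 73184935, minus strand), the Argonaute known for target cleavage, had 5151 and 4463 spike-in scaled counts in WT GV, 5579.9 and 3847 in GVBD, then 1267 and 854 in MII. Its MII libraries did not overlap either earlier stage. It fell by a log2 fold change of −2.18 ± 0.50 from GV to MII (edgeR, adjusted p = 9.8e-05). *Drosha* had 1896 and 1629 in WT GV, 3281 and 1262 in GVBD, then 822 and 382 in MII. Its change from GV to MII was −1.55 ± 0.51 (edgeR, adjusted p = 0.0098). *Dgcr8* had 131 and 199 in WT GV, 280.3 and 179.8 in GVBD, then 50.2 and 15.4 in MII. It changed by −2.33 ± 0.75 (edgeR, adjusted p = 0.0081). Both components of the nuclear complex were therefore lower at MII with no overlap of libraries. Part of the exons of *Dgcr8* (825 bases) is shared with *Trmt2a* on the other strand, which had up to 266 counts in a library. *Ago2* likewise shares 219 bases with *Chrac1* (up to 220 counts), and the use of strand in counting is not given in the sources used here.

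*Dicer1* and *Ago3* went against this. *Dicer1* had 15525 and 35682 spike-in scaled counts in WT GV, 16312 and 21212 in GVBD, then 48903 and 26892 in MII. The MII libraries overlapped GV but lay above both GVBD libraries. Its log2 fold change was 0.57 ± 0.44 from GV to MII (edgeR, adjusted p = 0.361) and 1.01 ± 0.59 from GVBD to MII (edgeR, adjusted p = 0.201). *Ago3* (ENSMUSG00000028842, chromosome 4, 126331704 to 126429556, minus strand) had 2049 and 1806 in WT GV, 2854 and 1559 in GVBD, then 2225 and 1636 in MII. These groups overlapped at all stages, and the GV to MII change was 0.00 ± 0.49 (edgeR, adjusted p = 0.999). Relative to the median gene, *Dicer1* stood 1.63 higher and *Ago3* 1.06 higher on the log2 scale.

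*Xpo5*, the exporter of precursors, had 625 and 663 in WT GV, 771 and 626 in GVBD, then 412 and 279 in MII, a log2 fold change of −0.90 ± 0.53 (edgeR, adjusted p = 0.205). *Ago4* had 52.2 and 94.5 spike-in scaled counts in WT GV, 87.2 and 91.2 in GVBD, then 32.7 and 16.4 in MII, a change of −1.58 ± 0.91 (edgeR, adjusted p = 0.187). *Ago1* had 7.12 and 67.7 in WT GV, 65.7 and 58.4 in GVBD, then 28.7 and 8.67 in MII, with overlapping GV and MII groups. *Piwil2* had 73.6 and 147 in WT GV, 67 and 54 in GVBD, then 63 and 56.4 in MII, with the MII libraries below those of GV. None of these 4 genes passed the test.

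From GVBD to MII in WT, the same 4 genes, *Tarbp2*, *Dgcr8*, *Ago2* and *Drosha*, were called lower and none higher, beside 27.1% of all tested genes called lower. Their log2 fold changes were −3.25 ± 0.76, −2.82 ± 0.78, −2.15 ± 0.67 and −1.92 ± 0.68 (edgeR, adjusted p from 2.5e-04 to 0.021). With TMM scaling *Drosha* was not called at this step and *Dicer1* was called higher (1.84, edgeR, adjusted p = 0.017), beside 9.64% of all genes called higher. From GV to GVBD in WT, 0 of 10 were called by edgeR, 0 had an unadjusted p under 0.05 and 0 were called by DESeq2, beside 0.0511% of all tested genes by edgeR and 1.96% by DESeq2.

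Several of these calls were lost when 1 library was left out, in fits that hold fewer libraries and mostly called fewer genes. From GV to MII in WT the log2 fold changes kept their direction. They ranged from −4.62 to −3.09 for *Tarbp2*, −2.49 to −1.92 for *Ago2*, −3.41 to −1.71 for *Dgcr8* and −2.21 to −1.10 for *Drosha*. From GV to MII in WT, *Tarbp2* was the only member called without WT GV replicate 1 or without WT GV replicate 2 (beside 14% and 13.6% of all genes called lower), and *Tarbp2* and *Ago2* were called without WT MII replicate 2 (beside 13.8%). For the step from GVBD to MII, no member was called without WT MII replicate 2 (beside 12.4%), *Tarbp2* alone without WT GVBD replicate 1 (8.61%), and *Tarbp2* and *Dgcr8* without WT GVBD replicate 2 (16.3%). Without WT MII replicate 1, *Xpo5* was called as well from GV (beside 26%), and *Ago1* from GVBD (beside 25%). With TMM scaling, which centres the bulk of genes near 0, *Tarbp2* (−2.92) and *Ago2* (−1.32) stayed called from GV to MII, and *Drosha* (−0.76) and *Dgcr8* (−1.60) did not. *Dicer1* then gave 1.39 (edgeR, adjusted p = 0.051) and *Ago3* 0.88 (edgeR, adjusted p = 0.017, under the fold minimum). With median-of-ratios scaling *Dicer1* was called higher (1.55, edgeR, adjusted p = 0.023). Over all genes, 74 were called higher and 5747 lower from GV to MII in WT, and 1329 (7.06%) and 3193 with TMM scaling. From GVBD to MII these counts were 131 and 5208, and 1852 and 2995 with TMM scaling.

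**Figure D2:**
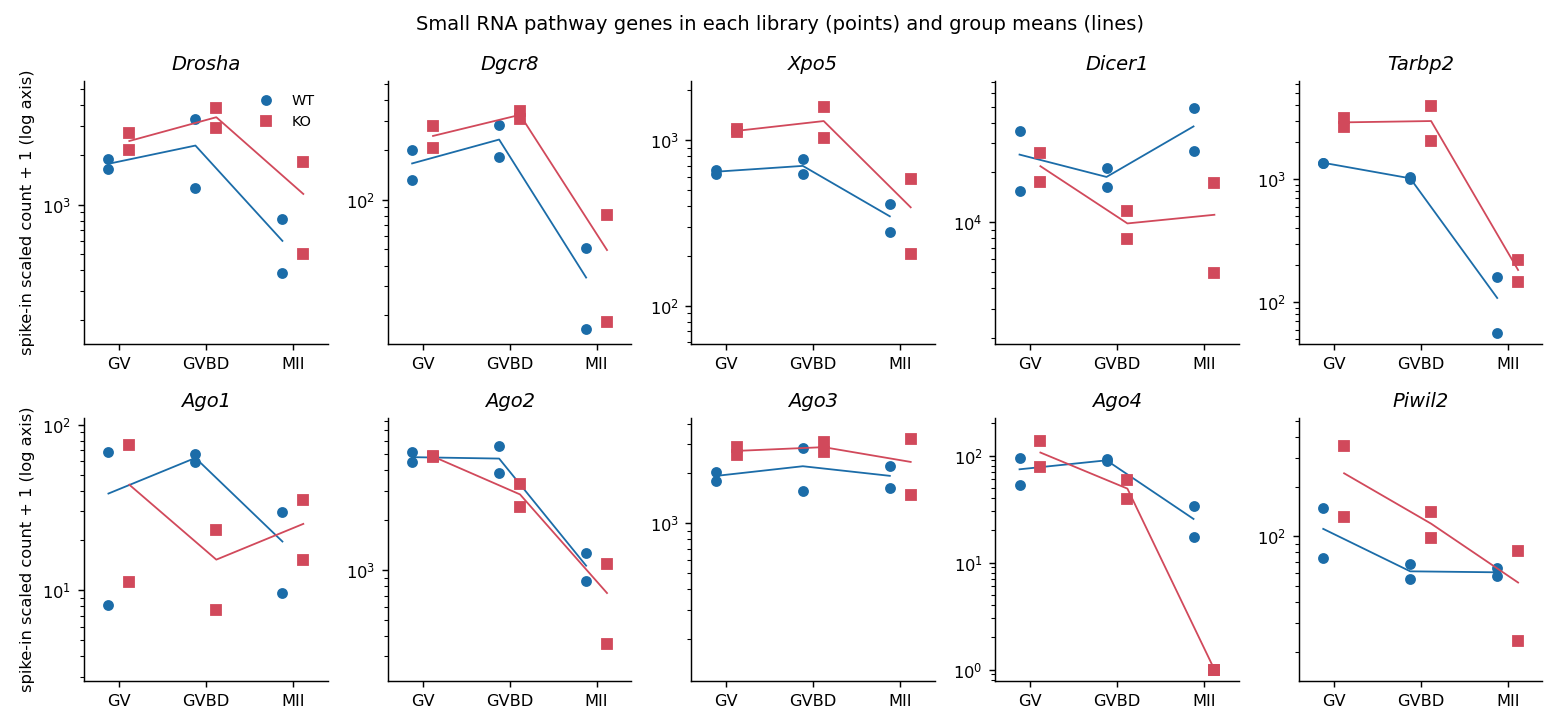
Spike-in scaled counts plus 1 (log axis) of the 10 genes in every library, with WT as blue circles, KO as red squares and lines through the group means, at GV, GVBD and MII. *Tarbp2* drops in both genotypes at MII (159.5 and 55.4 in WT), *Ago3* stays level on this scale (0.88 higher on the log2 scale in WT MII than in WT GV with TMM scaling), and *Dicer1* lies lower in KO than in WT at GVBD and MII.

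In KO oocytes, *Tarbp2* fell as in WT and *Ago4* dropped out of the counts. From GV to MII in KO, 2 of 10 genes were called lower, beside 3.28% of all 18777 tested genes. *Tarbp2* had 2644 and 3164 spike-in scaled counts in KO GV, 3917 and 2036 in GVBD, then 218 and 146 in MII. The log2 fold change was −3.99 ± 0.69 from GV to MII (edgeR, adjusted p = 0.032) and −4.03 ± 0.85 from GVBD to MII (edgeR, adjusted p = 0.0045). *Ago4*, which lacks both catalytic codons, had 74 and 60 counts in KO GV, 35 and 35 in GVBD, then 0 and 0 in MII. With a limit of 3 counts per library for a count of 0, it was at least 41-fold lower at MII than at GV and at least 18.7-fold lower than at GVBD (edgeR, adjusted p = 0.035 and 0.012). Limits of this kind are set against the mean of the other group and leave out the spread of its libraries. They cover counting error of the 0 only, since reads were amplified by PCR without molecular identifiers.

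The other genes of the pathway fell short of the threshold in KO. Standard errors were wider there than in WT, and the KO fit pooled less of its spread over all genes. The same ratio of change to SE therefore gave a larger p in KO, and numbers of calls cannot be compared between genotypes. *Ago2* had 4845 and 4857 spike-in scaled counts in KO GV, 2417 and 3306 in GVBD, then 1092 and 357 in MII. Its KO libraries were already lower at GVBD than at GV, and its GV to MII change of −2.74 ± 0.70 missed the threshold (edgeR, adjusted p = 0.058). It was called with TMM (−1.80, adjusted p = 0.045) and median-of-ratios scaling, with either other filter, by DESeq2, with all 12 libraries in one model and with the replicate block. *Dgcr8* changed by −2.32 ± 0.96 (adjusted p = 0.173), *Drosha* by −1.06 ± 0.72 (adjusted p = 0.384), *Xpo5* by −1.54 ± 0.74 (adjusted p = 0.23) and *Dicer1* by −0.98 ± 0.64 (adjusted p = 0.371), all by edgeR. Without KO MII replicate 2 these values were −1.59, −0.41, −0.97 and −0.34, and again none was called. *Ago3* changed by −0.22 ± 0.62 in KO (edgeR, adjusted p = 0.856), and with TMM scaling this value was 0.81. The median of the 10 members was −1.88, also with *Ago4* at its limit, against −1.17 for all tested genes.

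From GVBD to MII in KO, *Tarbp2* and *Ago4* were called lower, beside 7.12% of all tested genes. From GV to GVBD in KO, 0 of 10 were called by edgeR, 2 had an unadjusted p under 0.05 and 1 was called by DESeq2 (*Dicer1*), beside 0.22% of all tested genes by edgeR and 1.22% by DESeq2. *Dicer1* changed by −1.15 ± 0.32 at this step (edgeR, adjusted p = 0.446), and was called without KO GVBD replicate 2. The 2 KO MII libraries were far apart for most members. From GV to MII, 8 members were called lower without KO MII replicate 1, beside 53.9% of all genes in that fit. Without KO MII replicate 2 it was 3 (*Ago2*, *Ago4* and *Tarbp2*), beside 16.5%, and 0 without KO GV replicate 1 or without KO GV replicate 2, beside 0.196% and 0.265%. Between GVBD and MII, 7 were called lower without KO MII replicate 1, beside 32.4%. The count was 0 without KO MII replicate 2, KO GVBD replicate 1 or KO GVBD replicate 2, beside 0.0552%, 0.189% and 0.184%. The number of called members thus moved with the number of called genes.

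**Figure D3:**
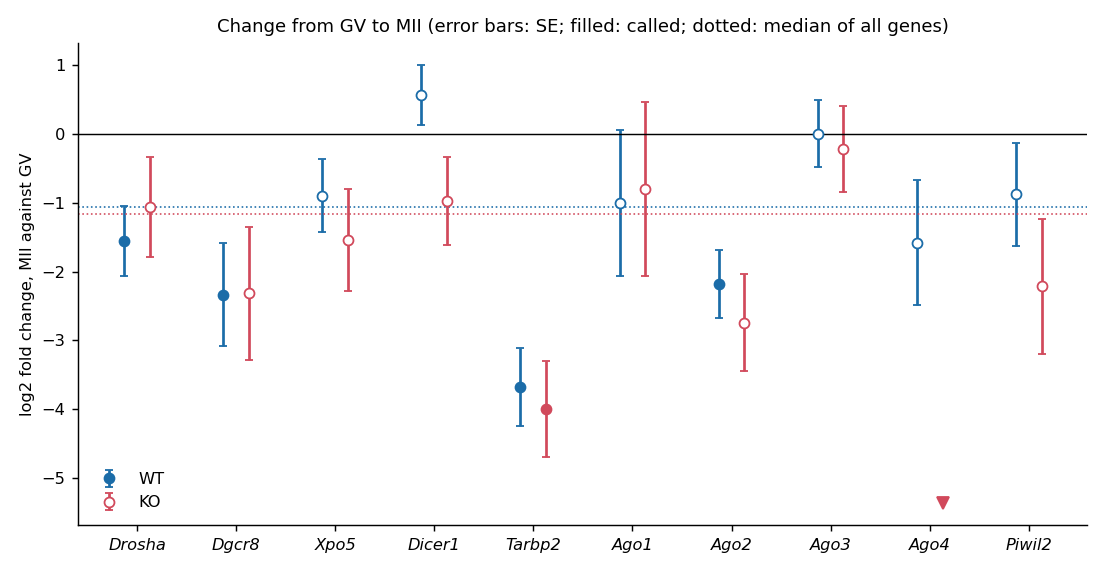
Log2 fold change from GV to MII with its SE for each gene, WT in blue and KO in red, filled where called, with dotted lines at the median of all tested genes (−1.06 in WT and −1.17 in KO). *Tarbp2* lies lowest among the fitted values at −3.67 and −3.99, *Ago3* near 0 in both genotypes (0.88 in WT and 0.81 in KO with TMM scaling), and the triangle marks the limit for *Ago4* in KO, which received 0 counts at MII.

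Whether the GV to MII change differed between genotypes was tested as an interaction term. By edgeR, 0 of 10 members were called, beside 0% of 20807 tested genes, and 1 member had an unadjusted p under 0.05 (*Ago4*), which DESeq2 called beside 0.731% of genes. For *Dicer1* the difference was −1.54 ± 0.87 (edgeR, adjusted p = 1), that is 0.57 in WT against −0.98 in KO. With 1 library left out it ranged from −2.70 to −0.91, the latter without KO MII replicate 2.

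The direct comparison of KO with WT gave no call at any stage, with *Tarbp2* higher and *Dicer1* lower in the fitted values. At GV, 0 of 10 members were called by edgeR, 3 had an unadjusted p under 0.05 and 1 was called by DESeq2 (*Tarbp2*), beside 0.0977% of all tested genes by edgeR and 3.42% by DESeq2. At GVBD, 0 were called, 2 had an unadjusted p under 0.05 and 1 was called by DESeq2 (*Tarbp2*), beside 2.54% by edgeR and 4.63% by DESeq2. At MII, 0 were called, 2 had an unadjusted p under 0.05 and 0 were called by DESeq2, beside 0.803% by edgeR and 1.97% by DESeq2. Over the 3 stages together, with stage as a term of the model, 0 were called, 3 had an unadjusted p under 0.05 and 1 was called by DESeq2 (*Tarbp2*), beside 1.26% by edgeR and 6.16% by DESeq2. The median of all tested genes was itself higher in KO, by 0.36 at GV, 0.23 at GVBD, 0.30 at MII and 0.29 over all stages on the log2 scale. The share of all genes whose libraries did not overlap was not computed for any comparison. Separation of 2 against 2 libraries is therefore given as a description only.

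*Tarbp2* was higher in both KO libraries than in both WT libraries at GV and GVBD, as the counts above show, and overlapped at MII. Against WT, its log2 fold change in KO was 1.09 ± 0.19 at GV (edgeR, adjusted p = 0.126), 1.55 ± 0.53 at GVBD (edgeR, adjusted p = 0.138) and 0.76 ± 0.99 at MII (edgeR, adjusted p = 1). Over all stages it was 1.14 ± 0.29 (edgeR, adjusted p = 0.07), 0.85 above the median gene. DESeq2 called it over all stages, and so did edgeR without a filter, with a minimum of 10 counts per library, without WT MII replicate 1 and without KO MII replicate 2.

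*Dicer1* had 17447 and 26126 spike-in scaled counts in KO GV, 7954 and 11687 in GVBD, then 17207 and 4949 in MII. These values overlapped WT at GV, and lay below both WT libraries at GVBD and at MII. Against WT, the log2 fold change was −0.23 ± 0.41 at GV (edgeR, adjusted p = 0.819), −0.93 ± 0.50 at GVBD (edgeR, adjusted p = 0.405) and −1.77 ± 0.67 at MII (edgeR, adjusted p = 0.278). The MII value was −1.14 without KO MII replicate 2 and −2.94 without KO MII replicate 1. Over all stages it was −0.98 ± 0.37 (edgeR, adjusted p = 0.175), which is −1.27 relative to the median gene. With TMM scaling the value was −1.29 and *Dicer1* was called (edgeR, adjusted p = 0.046). In CPM, its mean in MII was 1534 ± 167 (SD, n = 2) in WT and 354 ± 184 in KO.

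None of the remaining members was called between genotypes. *Drosha* had 2698 and 2142 spike-in scaled counts in KO GV, 3825 and 2917 in GVBD, then 1815 and 500.0 in MII, and its change over all stages was 0.66 ± 0.34 (edgeR, adjusted p = 0.307). *Xpo5* had 1162 and 1115 in KO GV, 1582 and 1028 in GVBD, then 580.5 and 203 in MII. It was above both WT libraries at GV and GVBD, as was *Dgcr8*, and overlapped at MII, with 0.64 ± 0.29 over all stages (edgeR, adjusted p = 0.256). *Drosha* was above both WT libraries at GV only. *Dgcr8*, with 279 and 205 in KO GV, 344 and 306 in GVBD, then 80.1 and 17.2 in MII, changed by 0.54 ± 0.40 (edgeR, adjusted p = 0.496). Over all stages these 3 genes lay above the median gene by 0.37 (*Drosha*), 0.35 (*Xpo5*) and 0.25 (*Dgcr8*), each near its SE or under it. In all, 6 of the 10 members lay above the median gene, so this was not particular to these 3. At MII *Xpo5* lay below it (0.18 against 0.30), and none of the 3 passed the test.

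*Piwil2* had 349.6 and 130.1 spike-in scaled counts in KO GV, 97 and 139.9 in GVBD, then 81.1 and 22.2 in MII. It overlapped WT at GV and MII, and its change over all stages was 0.63 ± 0.44 (edgeR, adjusted p = 0.462). *Ago1*, with 74.6 and 10.2 in KO GV, 6.58 and 22 in GVBD, then 34 and 14.3 in MII, gave −0.47 ± 0.77 over all stages (edgeR, adjusted p = 0.785) and −2.08 ± 0.95 at GVBD (edgeR, adjusted p = 0.303). *Ago4* gave −1.41 ± 0.89 over all stages (edgeR, adjusted p = 0.413). At MII it had 41 and 34 counts in WT against 0 and 0 in KO (edgeR, adjusted p = 0.109). Leaving the spread of the WT libraries aside, it was at least 9.53-fold below the WT mean. It was called there without KO MII replicate 1 and not without KO MII replicate 2.

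**Figure D4:**
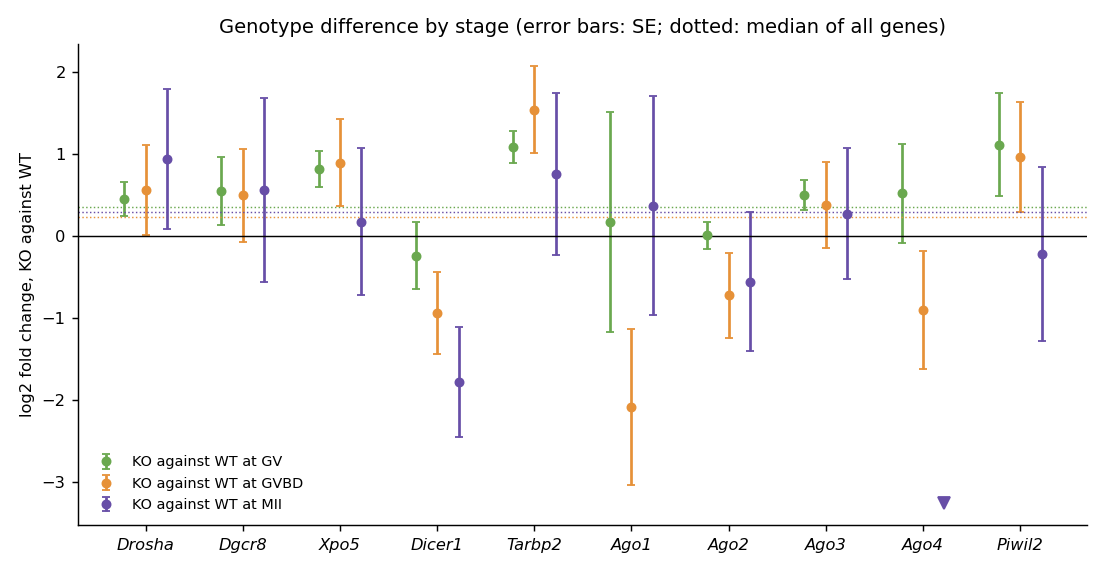
Log2 fold change of KO against WT with its SE for each gene at GV (green), GVBD (orange) and MII (purple), with dotted lines at the median of all tested genes. *Tarbp2* lies above 0 at each stage (1.09, 1.55 and 0.76) and *Dicer1* below it (−0.23, −0.93 and −1.77), no value passed the adjusted threshold, and the triangle marks the limit for *Ago4* at MII.

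*Ago2* and *Ago3*, the Argonautes with both catalytic codons, made up most of the family's counts per length, and their balance shifted from *Ago2* to *Ago3* with maturation. As a ratio within a library, this measure does not depend on the scaling between libraries. The *Ago2* to *Ago3* ratio was 2.97 and 2.92 in WT GV, 2.31 and 2.91 in GVBD, then 0.672 and 0.617 in MII. The KO values were 1.99 and 2.21 (GV), 0.929 and 1.46 (GVBD) and 0.402 and 0.285 (MII). In both genotypes the MII libraries lay below all earlier ones, and KO lay below WT at each stage with no overlap. *Ago2* took 70.8% to 73.5% of Argonaute counts per length in WT GV libraries and 37.3% to 38.8% in WT MII, against 21.8% to 28.2% in KO MII.

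The difference of KO from WT in the mean log2 ratio was −0.49 at GV, −1.16 at GVBD and −0.93 at MII, so that the ratio was 1.4-fold, 2.23-fold and 1.9-fold higher in WT. Over the 3 stages the mean difference of KO from WT was −0.86 on the log2 scale. An exact permutation test of the genotypes within stages (two-sided, 216 arrangements, n = 6 libraries per genotype) gave p = 0.0093, the smallest that these arrangements can give. The ratio was the only one tested, and it was chosen after the values, with no overlap at any stage, were seen. Such separation fixes the p at this minimum, so it is no independent support for a genotype difference. A ratio shows unequal change of the genes and does not tell which of them changed. *Ago3* had 2871 and 2592 spike-in scaled counts in KO GV, 3073 and 2682 in GVBD, then 3208 and 1478 in MII. Over all stages *Ago2* differed between KO and WT by −0.42 ± 0.28 (edgeR, adjusted p = 0.44) and *Ago3* by 0.39 ± 0.24 (edgeR, adjusted p = 0.408). With TMM scaling the values were −0.71 (adjusted p = 0.037, under the fold minimum) and 0.12 (adjusted p = 0.612).

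**Figure D5:**
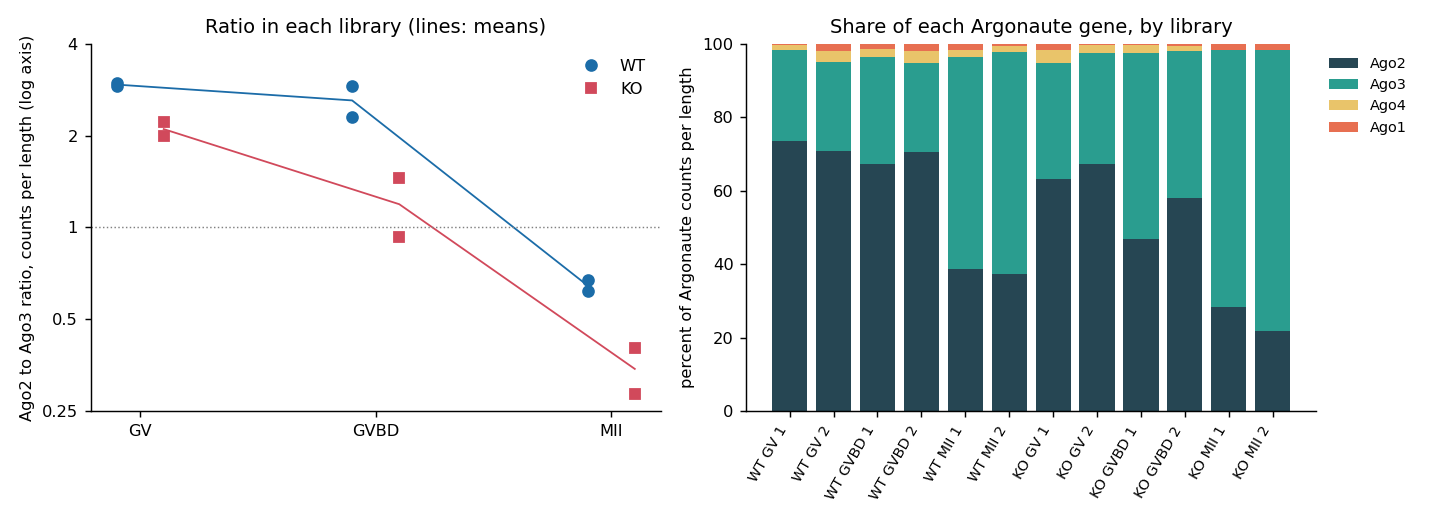
Left, ratio of *Ago2* to *Ago3* counts per length (log axis) in each library, WT as blue circles and KO as red squares with lines through the means, at GV, GVBD and MII. Right, percent of Argonaute counts per length taken by each gene in each of the 12 libraries. The ratio is 2.97 and 2.92 in WT GV and 0.402 and 0.285 in KO MII, and *Ago2* and *Ago3* fill nearly all of each bar.

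Other genes of the same pathways were read from lists chosen by name. Of 25 cofactors of small RNA production and silencing, such as GW182 proteins and the terminal uridylyl transferases, 24 were tested from GV to MII in WT. Of these, 6 were called lower and 0 higher, beside 30.5% of all genes called lower, with a median of −0.71 against −1.06 for all genes. Of 19 further piRNA pathway genes, 18 were tested and 9 were called lower, beside the same share, with a median of −1.35. *Gtsf1*, a PIWI cofactor, went from 121028 and 122801 spike-in scaled counts in WT GV to 6244 and 4240.0 in WT MII, a log2 fold change of −4.54 ± 0.48 (edgeR, adjusted p = 1.7e-18). *Mael*, which acts in piRNA-directed silencing of transposons, went from 1686 and 2079 to 97.3 and 70.4 (−4.49 ± 0.58, edgeR, adjusted p = 6.3e-13). Both genes were the most changed of these lists.

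From GVBD to MII in WT, 5 of 25 cofactors and 5 of 18 piRNA genes were called lower, beside 27.1% of all genes, with *Mael* (−4.92 ± 0.78) and *Gtsf1* (−4.56 ± 0.66) again the most changed. In KO, 0 of 25 cofactors and 1 of 18 piRNA genes were called lower from GV to MII, beside 3.28% of all genes, the latter being *Gtsf1* (−3.01 ± 0.66, edgeR, adjusted p = 0.045). From GVBD to MII in KO, 1 cofactor and 3 piRNA genes were called lower, beside 7.12% of all genes. The most changed were *Zswim8*, whose product directs the decay of Argonaute bound to certain targets (−3.80 ± 1.04, edgeR, adjusted p = 0.023), and *Henmt1*, the methyltransferase of piRNA 3′ ends (−2.97 ± 0.80, edgeR, adjusted p = 0.02). No gene of either list was called from GV to GVBD, beside 0.0511% of all genes in WT and 0.22% in KO. None was called between KO and WT either, beside 0.0977% at GV, 2.54% at GVBD, 0.803% at MII and 1.26% over all stages. With shares this low, few or no calls would be found in lists of this size. Over all stages of KO against WT the medians were 0.33 for the cofactors and 0.54 for the piRNA genes, against 0.29 for all genes.

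Transcripts known as targets of oocyte siRNAs were read beside the machinery. The 4 examined, *Ppp4r1*, *Rangap1*, *Hdac1* and *Pdzd11*, had a median of −1.40 from GV to MII in WT, against −1.06 for all genes. Of the 4, 1 was called lower (*Pdzd11*, −1.86 ± 0.49, edgeR, adjusted p = 9.2e-04), beside 30.5% of all genes called lower. None was called between KO and WT, beside 0.0977% to 2.54% of all genes by stage and 1.26% over all stages. Their median over all stages was 0.28, against 0.29 for all genes.

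Genes with the most similar course over the 12 libraries were listed for the 8 members with a mean of at least 50 counts, by Pearson r of log2 TMM-scaled counts over 10835 genes, as a description. *Dicer1* was most like *Zcchc7* (r = 0.959) and *St3gal5* (r = 0.952), *Drosha* like *Dnaja1* (0.962) and *Mms19* (0.957), and *Dgcr8* like *Nop9* (0.984) and *Yars2* (0.975). *Tarbp2* was most like *Psmc4* (r = 0.98) and *Zkscan5* (r = 0.974), and *Xpo5* like *Irf1* (0.919) and *Sec14l1* (0.918). *Ago2* was most like *Wdr27* (r = 0.992) and *Kcnj13* (r = 0.966), *Ago3* like *Riok1* (0.983) and *Arhgap28* (0.981), and *Piwil2* like *Acaca* (0.87) and *Acacb* (0.848). The libraries share stage and genotype, which sets much of each r.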

How the data were processed

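Polyadenylated RNA of pooled mouse oocytes was measured in 12 libraries. The deposited table holds raw read counts per gene, which the authors made from reads trimmed with cutadapt 1.9, aligned with HISAT2 2.0.4 to GRCm38 joined to the ERCC sequences, kept where uniquely mapped and passed to StringTie 1.3.4d (versions from the submitters' processing notes). The annotation release, the counting step and whether it used strand are not given in the sources used here. The methods describe a full-length, template-switching cDNA kit with ERCC RNA added to the lysate, and the extraction protocol given with the samples a bulk preparation, so the protocol used is not settled. PCR duplicates were not marked by molecular identifiers, so counts are not independent molecules, and total counts of 28.6 to 40.2 in units of 1e6 bound counting error only.

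Identifiers were matched to symbols, and 52073 of 56691 genes had one. Positions and exon lengths are from GENCODE M21 (GRCm38), counted from 1. Counts were divided by summed ERCC counts relative to their mean over libraries. Each of 11 comparisons was fitted with edgeR 4.0.16 (glmQLFit, glmQLFTest, R 4.3.3) on the groups it names, with library sizes in proportion to ERCC counts and filterByExpr. Tests were two-sided, the adjusted p threshold was 0.05 and the absolute log2 fold minimum 1. The SE is the log2 fold change over the square root of F. p-values rest on the spread between the 2 libraries of a group, which edgeR shares across genes. In the fits of WT MII with another group, p followed a normal reference for the change over its SE. There the spread pooled over all genes set p, and a gene's own spread added little. Over all stages, differences of the genotype effect between stages also enter the spread. Scripts were tested on simulated data. Alternatives were TMM and median-of-ratios scaling, other filters on low counts, DESeq2 1.42.0, all 12 libraries in one model, a replicate block, no fold minimum and leaving out each library. The named genes are the 10 members, *Alkbh5*, up to 2 called genes of the other lists per comparison and the 2 genes most like each member. The members and lists were chosen with earlier results of these data known. A crossed pairing was added after seeing the data.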

Additional observations from a re-analysis of the deposited data

How the results depend on the processing

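For the 10 members, 42 log2 fold changes and the counts of called members were recomputed under the alternatives, and fold changes of other genes were not. Of 295 such values from alternatives other than leaving out a library, 253 kept their direction and their side of the threshold, 13 lost a call, 25 gained one and 4 reversed. The reversals were *Xpo5* from GV to MII in WT with median-of-ratios scaling (0.090), and *Ago3* from GV to MII in WT with the replicate block (−0.012) and in KO with TMM (0.81) and median-of-ratios scaling (0.83). Of 256 values with 1 library left out, 214 were unchanged in this sense, 27 lost a call, 10 gained one and 5 reversed, with ranges of −0.24 to 0.21 for *Ago3* in WT, −0.89 to 0.23 for *Ago3* in KO and −0.71 to 0.49 for *Dicer1* in KO against WT at GV. Counts of called members moved as follows. KO against WT at GV went from 0 to 1 with no filter on low counts, with at least 10 counts in every library and with DESeq2, at GVBD from 0 to 1 with DESeq2, and at MII from 0 to 1 with all 12 libraries in one model. Over all stages it was 1 in place of 0 with TMM or median-of-ratios scaling (*Dicer1*), with all 12 libraries in one model (*Ago4*), and with either filter, DESeq2 or the replicate block (*Tarbp2*). GVBD against GV in KO and the interaction each went from 0 to 1 with no filter and with DESeq2. From GV to MII in WT the count was 2 in place of 4 with TMM scaling and with all 12 libraries in one model, and 3 with median-of-ratios scaling, 1 of them higher (*Dicer1*). From GVBD to MII in WT it was 3 with all 12 libraries in one model and 5 with at least 10 counts in every library, and stayed 4 with TMM and median-of-ratios scaling, 1 of them higher (*Dicer1*). From GV to MII in KO it was 3 in place of 2 with both scalings, no filter, DESeq2, all 12 libraries in one model and the replicate block. For GVBD to MII in KO it was 1 in place of 2 with TMM and median-of-ratios scaling, and 4 with DESeq2, all 12 libraries in one model or the replicate block. With 1 library left out the counts ranged from 1 to 5 (GV to MII) and 0 to 5 (GVBD to MII) in WT, from 0 to 8 and 0 to 7 in KO, from 0 to 1 for GVBD against GV in KO and for KO against WT at MII and over all stages, and stayed 0 elsewhere. An arm left with 1 library was assumed to vary like the others. The causes of these shifts were not tested, apart from the fewer libraries or genes that some alternatives hold by construction. The replicate numbers of the titles did not show a pairing, since deviations of same-numbered libraries correlated at −0.22 to 0.21 over 13273 genes. The block also added 1 call from GVBD to MII in WT (5 in place of 4). Where the correlation was under −0.1, a crossed pairing gave 0 called members for KO against WT at GV and at MII and 0 from GVBD to MII in KO. No fold minimum changed no count. Of 16 genes listed as most like a member, 7 remained with spike-in scaling. With 2 libraries a group, low genes such as *Ago1*, *Ago4* and *Piwil2* cannot be compared closely.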
